A study of Mus musculus with 6 samples.

Results

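Ion channel genes and the genes of the receptors for extracellular nucleotides (P2 receptors) were examined in mRNA sequencing libraries of mouse calvarial osteoblast cultures. Members were all rows of the deposited table whose gene symbol belongs to the potassium (Kcn), calcium (Cacn), sodium (Scn), TRP, Piezo, ClC chloride (Clcn), anoctamin (Ano) or P2 receptor (P2rx, P2ry) families, which gave 183 of 31401 genes. Classes were compared among the 51 members selected on expression level, a mean of at least 0.5 FPKM (FPKM scales the read count by exon length and library total) over the 6 samples. The level limit is the measured value that the rule uses. All 51 passed the edgeR filter on low counts, and of the other 132 members 59 passed it and 73 did not.

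The cells came from the calvaria, the flat bones of the skull, of 3-day-old wild-type C57BL/6 mice. Both groups spent 6 days in osteogenic induction medium, without further compound (control, 3 samples) or with 10 μM ZM (3 samples), and the labels put every sample in 1 batch. The compound ZM (ZM-306416) is known to inhibit the kinases of the VEGF and EGF receptors. Whether the replicates were separate cultures is not stated in the labels. The p-values therefore reflect spread among the 6 libraries at hand, and that spread may be technical.

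Potassium channels let potassium leave the cell and set the membrane potential, while calcium channels, many TRP channels and Piezo channels let calcium enter, where it acts as a second messenger. Osteoblasts respond to stretch and fluid flow through such channels, and they release ATP. P2X receptors are channels opened by ATP, and P2Y receptors are G-protein-coupled receptors for ATP, ADP, UTP, UDP or UDP-glucose. The same families also serve macrophages and osteoclasts, the cells that resorb bone.

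Library totals were 42721326 to 69867931 counts, with 24067 to 25681 genes detected. The label osteoblast was checked against fixed marker lists. Col1a1, the main collagen of bone matrix, stood at 1330 FPKM in control and 1360 with ZM, but Ibsp and Bglap (osteocalcin), markers of late osteoblasts, were at or under 0.189 FPKM in both groups. The Bglap value is uncertain, since Bglap2 matches 99.8% of its length and how shared reads were counted is not given in the labels. Summed over 12 osteoblast markers, the level was 10800 to 11100 FPKM in the controls and 4760 to 5090 FPKM with ZM, most of it osteopontin (Spp1, 9010 and 3000 FPKM), which macrophages and osteoclasts also express. Transcripts of macrophages were abundant in both groups: the summed level of 15 macrophage markers was 13300 to 13700 FPKM in the controls and 7190 to 7990 with ZM, most of it lysozyme (Lyz2). Of these 15 markers, 13 fell, Cx3cr1 rose and Aif1 did not pass. All 9 osteoclast markers rose, their sum going from 301 to 321 FPKM to 560 to 574 FPKM. Among the other lists, 5 of 11 tested osteoblast markers rose and 2 fell, 4 of 7 endothelial, 2 of 7 glial and 2 of 2 skeletal muscle markers fell with none higher, 3 of 5 chondrocyte and 2 of 2 adipocyte markers rose with none lower, and of 10 smooth muscle markers 4 rose and 3 fell. Beside these counts, 22.8% of all 17533 genes tested rose and 22.4% fell. The marker shifts run beside every result below, and their part in the results was not tested. In bulk RNA, fewer cells of a type and less RNA per cell cannot be told apart.

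With ZM, 16 of the 51 members rose and 20 fell (edgeR's quasi-likelihood test, Benjamini-Hochberg adjusted p under 0.05), while 15 did not pass. The members called thus made up 70.6%, beside 50.9% of all tested genes above the same expression level, of which 25.6% rose and 25.2% fell. Over all 17533 genes tested, 45.3% were called, 22.8% higher and 22.4% lower. The groups did not overlap in FPKM for 40 of the 51, beside 59.9% of all tested genes above the same level. Most changes were small. The median log2 fold change of the 51 was 0.01 and the median of its absolute value 0.33, beside -0.01 and 0.19 for all genes above that level. A change of at least 2-fold was called for 8 members (15.7%; 4.94% of all genes above that level). Those that rose were Kcnj2, Scn2a and Scn3b, and those that fell were Kcna3, P2ry13, Kcnj10, P2ry12 and Trpm2. Of these 8, Scn2a and Trpm2 passed the level limit only through the group where they are high, which favours a large change. FPKM values were scaled by the library total and log2 fold changes by TMM, which set ZM values 0.06 lower on the log2 scale in the median, so a small rise in FPKM can go with a fold change near 0.

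**Figure D1:**
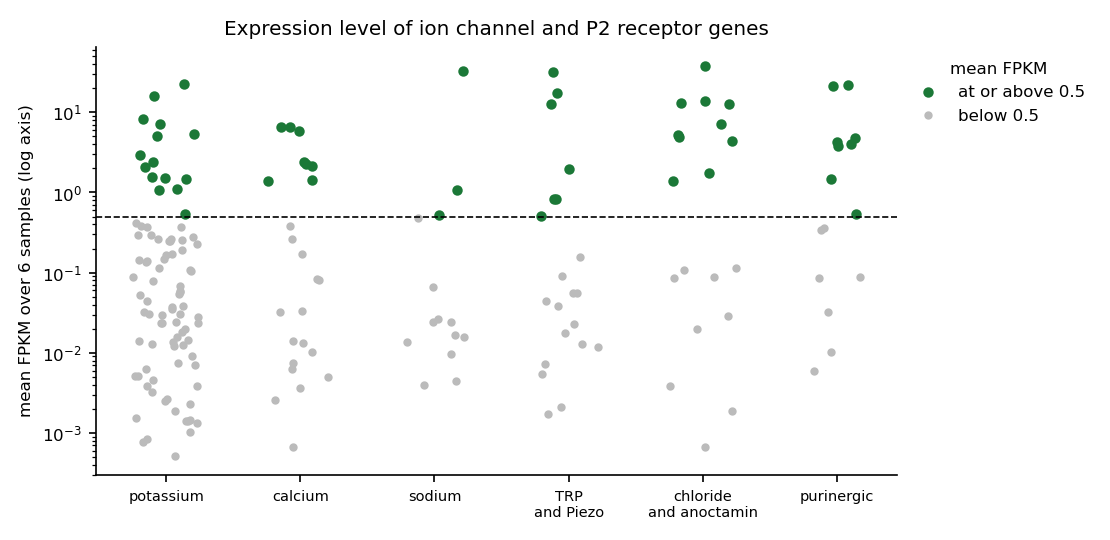
Mean FPKM over the 6 samples (log axis) of all 183 members, one point per gene, grouped by family; green points lie at or above 0.5 FPKM (dashed line), grey points below. Most potassium channel genes lie below the line, and the highest point is Clcn7 at 37.3 FPKM.

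Expression level varied widely within each family. High means over the 6 samples, per length, were those of Clcn7 (37.3 FPKM), Piezo1 (32.1), Kcnj15 (22.3), P2rx4 (22.0), P2ry6 (21.0), Trpm7 (17.5) and Kcne4 (16.1). Of 90 potassium channel rows, 15 reached 0.5 FPKM, against 8 of 24 for calcium, 3 of 14 for sodium, 7 of 21 for TRP and Piezo, 10 of 19 for ClC and anoctamin, and 8 of 15 for P2 receptors. The members just inside the limit were Trpm2 (0.510), Scn2a (0.526) and P2ry14 (0.539), and those just outside were Scn7a (0.485), Kcnn3 (0.419) and Cacng8 (0.387). Kcnn1 and Scn2a had a control mean under the limit, and P2ry14 and Trpm2 a ZM mean under it. Among the 47 members at 0.5 FPKM or more in both groups, 15 rose and 18 fell (70.2%).

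Transcripts of P2 receptors were lower with ZM. Of 8 at 0.5 FPKM or more, 6 fell (25.2% of all genes above the level), 0 rose and 2 did not pass, with a median log2 fold change of -0.44. All 5 P2Y genes fell, while of 3 P2X genes only P2rx7 did. P2ry14 passed the level limit only through its control mean (0.601 FPKM in control, 0.476 with ZM). The calls of P2ry14 and P2rx7 were lost under several alternatives, as given below. Summed over the family, the level went from 71.5 FPKM in control to 54.2 with ZM. The P2Y sum went from 43.6 to 26.1 FPKM, and the P2X sum was 27.9 and 28.2 FPKM.

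Start regions are shown of P2ry12 and P2ry13, neighbours that fell together, of P2rx7, which holds motif matches, and of Kcna3 and Kcnj2, the potassium pores with the largest fall and the largest rise at 0.5 FPKM or more. Each is the 250 bases before the transcription start in the RefSeq table for GRCm38.p6, 5′ to 3′ on the gene's strand. Capitals mark motif matches. That start lies 16 bases from the GENCODE gene start for P2rx7, 114 for P2ry12 and 7 for Kcna3. For P2ry13 and Kcnj2 the starts are the same.
P2ry13 (chr3:59210883-59211132, strand -): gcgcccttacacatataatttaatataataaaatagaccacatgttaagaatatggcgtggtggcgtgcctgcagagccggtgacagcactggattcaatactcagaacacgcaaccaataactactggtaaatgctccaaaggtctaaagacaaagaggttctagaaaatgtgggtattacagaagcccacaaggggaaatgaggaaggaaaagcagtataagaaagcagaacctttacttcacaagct
P2ry12 (chr3:59262986-59263235, strand -): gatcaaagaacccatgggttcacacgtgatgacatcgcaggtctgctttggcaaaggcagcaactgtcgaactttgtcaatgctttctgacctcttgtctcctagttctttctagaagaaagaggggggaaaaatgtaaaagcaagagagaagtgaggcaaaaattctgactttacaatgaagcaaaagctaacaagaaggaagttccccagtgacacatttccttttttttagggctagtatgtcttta
P2rx7 (chr5:122643677-122643926, strand +): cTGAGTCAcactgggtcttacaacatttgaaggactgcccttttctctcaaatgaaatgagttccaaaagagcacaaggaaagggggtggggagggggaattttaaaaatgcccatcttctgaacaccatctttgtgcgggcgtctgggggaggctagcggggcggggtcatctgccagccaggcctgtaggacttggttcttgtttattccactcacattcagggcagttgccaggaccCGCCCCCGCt
Kcna3 (chr3:107035912-107036161, strand +): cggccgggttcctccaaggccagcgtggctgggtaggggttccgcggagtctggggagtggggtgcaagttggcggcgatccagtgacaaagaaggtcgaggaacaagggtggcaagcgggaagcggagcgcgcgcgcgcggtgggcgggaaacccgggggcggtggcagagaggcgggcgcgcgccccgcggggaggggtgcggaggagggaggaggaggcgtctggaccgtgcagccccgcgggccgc
Kcnj2 (chr11:111065914-111066163, strand +): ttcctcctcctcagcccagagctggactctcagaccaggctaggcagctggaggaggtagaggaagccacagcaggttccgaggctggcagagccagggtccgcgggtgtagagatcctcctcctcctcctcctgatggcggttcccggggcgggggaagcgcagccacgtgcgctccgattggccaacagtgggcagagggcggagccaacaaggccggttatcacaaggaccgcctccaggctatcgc
Motifs chosen after the values were seen were searched on both strands: AP-1 (TGANTCA), PU.1 (GAGGAAGT, a macrophage factor), CRE (TGACGTCA) and EGR (GCGNGGGCG). Such windows were in the table for 41 of the 51 members. Their RefSeq starts lay up to 1488 bases (Cacnb3) from the GENCODE gene starts, with 1294 for Clcn4 and 126 for P2ry14. Shares are given beside those of the 11742 tested genes with a window and of all 20592 windows. AP-1 letters were in 2 of the 41 (4.88%; 4.68% and 6.44%), those of P2rx7 and P2ry14. PU.1 letters were in 2 (4.88%; 2.40% and 2.34%), Ano6 and Trpv2, and CRE letters in 1 (2.44%; 2.58% and 1.91%), Clcn4. EGR letters were in 2 (4.88%; 8.62% and 5.67%), Cacna2d1 and P2rx7. In the windows printed, P2rx7 held the AP-1 letters 249 bases before the RefSeq start and the EGR letters 10 bases before it, with no overlap. Its GENCODE start lies 16 bases upstream of the RefSeq start, so the EGR letters fall inside the GENCODE gene. The other windows held none of the 4 motifs. A match is letters in a window, and its absence says nothing of a factor.

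P2ry12 and P2ry13 encode receptors for ADP, and P2ry12, the target of antiplatelet drugs, is also a known marker of microglia, the macrophages of the brain. P2ry12 measured 6.98, 6.94 and 7.09 FPKM in the controls and 2.51, 2.61 and 2.64 FPKM with ZM. It was 2.82-fold lower (log2 fold change -1.50 ± 0.07 SE, n = 3 per group, edgeR adjusted p = 3.5e-11). P2ry13 measured 6.62, 6.43 and 6.34 FPKM in the controls and 1.60, 2.32 and 1.93 FPKM with ZM, 3.47-fold lower (-1.80 ± 0.11, edgeR adjusted p = 3.1e-09). All ZM samples of both genes lay far below all controls. P2ry13 is also on the list of members known in osteoblasts. The genes stand side by side on chromosome 3, both on the minus strand: P2ry13 at chr3:59207892-59210882 and P2ry12 at chr3:59216272-59262871, with 5389 bases between them in GENCODE M21 (GRCm38). P2ry14, the receptor for UDP-glucose, ends 54273 bases before P2ry13 at chr3:59113855-59153618. It was low, at 0.643, 0.528 and 0.632 FPKM in the controls and 0.517, 0.528 and 0.384 FPKM with ZM. The groups met at 0.528 FPKM after rounding but did not overlap in the unrounded values. The fall of P2ry14 (-0.39 ± 0.12, edgeR adjusted p = 0.018) was lost without control 1, control 3 or ZM 3 (edgeR adjusted p 0.062 to 0.095) and in limma on FPKM (adjusted p = 0.19). Adgre1, a defining macrophage marker, fell by 0.62 on the log2 scale and Lyz2 by 0.92 in the same samples, less than P2ry12 and P2ry13, while Fcgr1 fell by 1.48 and Cd163 by 1.79. Of the 15 macrophage markers listed, 13 fell, Cx3cr1 rose and Aif1 did not pass.

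P2ry6, the receptor for UDP, had the highest level of the P2Y genes. It measured 24.9, 23.9 and 23.7 FPKM in the controls and 17.5, 17.8 and 18.4 FPKM with ZM, 1.41-fold lower (-0.49 ± 0.04, edgeR adjusted p = 3.6e-08). P2ry2, the receptor for ATP and UTP, measured 4.27, 5.10 and 5.32 FPKM in the controls and 2.98, 2.52 and 2.88 FPKM with ZM, 1.83-fold lower (-0.87 ± 0.09, edgeR adjusted p = 8.7e-07). Neither gene's groups overlapped. They too are neighbours, 21918 bases apart on chromosome 7. Since P2ry6 fell less than P2ry12 and P2ry13, its share of the summed P2Y level was 55.5% ± 1.16 (SD, n = 3) in control and 68.7% ± 0.51 with ZM, whereas P2ry12 went from 16.1% to 9.93% and P2ry13 from 14.8% to 7.46%. P2ry1, another ADP receptor, lay under the level limit (0.404 and 0.317 FPKM) and did not pass (-0.40 ± 0.18, edgeR adjusted p = 0.092), and 23.1% of its exon length is overlapped by Gm37035 on the other strand.

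Differences were small among the P2X genes. P2rx4, an ATP-gated channel of the lysosome and cell surface, measured 21.1, 22.1 and 21.7 FPKM in the controls and 22.6, 23.2 and 21.0 FPKM with ZM. The groups overlapped, and the fold change was -0.02 ± 0.04 (edgeR adjusted p = 0.72). P2rx7, which opens at high ATP and is known in osteoblasts and in macrophages, lies 16111 bases from P2rx4 on chromosome 5. It measured 4.27, 4.35 and 4.09 FPKM in the controls and 3.79, 4.14 and 3.70 FPKM with ZM. The groups overlapped in FPKM, and the call (-0.19 ± 0.06, edgeR adjusted p = 0.019) was lost without control 2, ZM 1 or ZM 3 (edgeR adjusted p 0.078 to 0.085), with library totals alone as the scale (edgeR adjusted p = 0.095) and in limma on FPKM (adjusted p = 0.11). P2rx5 had a control mean of 1.58 ± 0.0862 FPKM and a ZM mean of 1.38 ± 0.0779 FPKM (SD, n = 3) and did not pass (-0.25 ± 0.12, edgeR adjusted p = 0.11). Its groups did not overlap in FPKM.

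**Figure D2:**
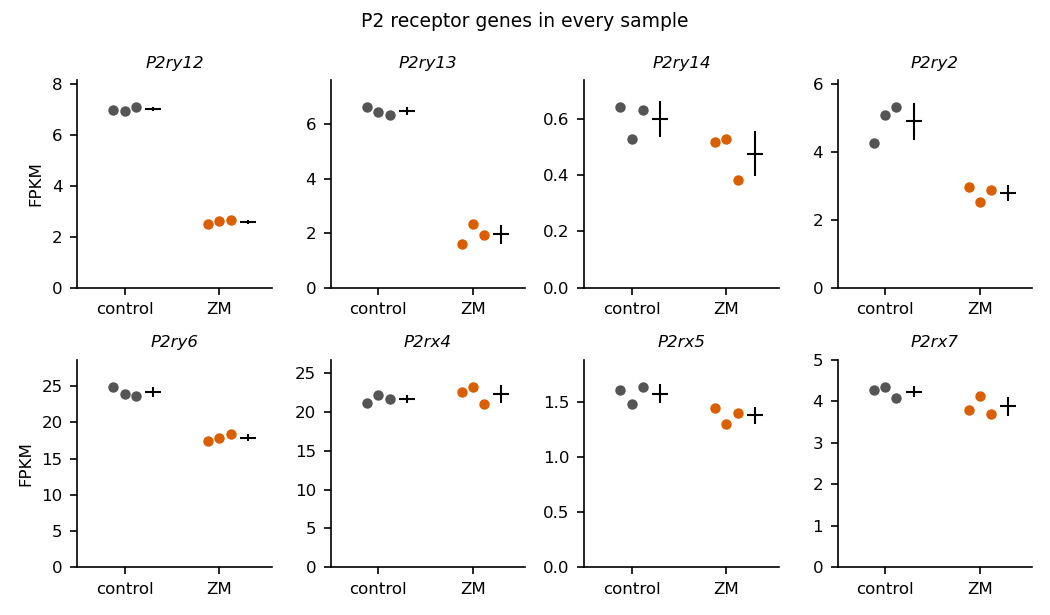
FPKM of the 8 P2 receptor genes at 0.5 FPKM or more in every sample (points; 3 control, 3 ZM), with the group mean and SD as a bar beside them and each axis starting at 0. The ZM points of P2ry12, P2ry13, P2ry2, P2ry6 and P2rx5 lie below all control points, and those of P2rx4 lie on both sides of them.

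Genes that release, break down or sense nucleotides moved mostly downward as well. Of 20 tested genes of a list for ATP release and nucleotide or adenosine handling, 12 fell and 5 rose, beside the 22.4% and 22.8% of all tested genes. Nt5e (CD73), which makes adenosine from AMP, measured 21.2, 20.9 and 22.4 FPKM in the controls and 5.11, 4.50 and 5.29 FPKM with ZM (-2.17 ± 0.05, edgeR adjusted p = 2.9e-13). Enpp1, which splits ATP into AMP and pyrophosphate, measured 14.2, 15.1 and 14.2 FPKM in the controls and 4.08, 3.96 and 3.89 FPKM with ZM (-1.93 ± 0.04, edgeR adjusted p = 3.2e-15). For both genes all ZM samples lay well below all controls. Slc17a9, the carrier that loads ATP into vesicles, went from a mean of 2.08 to 0.983 FPKM (-1.14 ± 0.13, edgeR adjusted p = 1.5e-06). Panx1, an ATP release channel, was lower by little, from 7.94 to 7.24 FPKM (-0.19 ± 0.05, edgeR adjusted p = 0.0026). Adora2b, the low-affinity receptor for adenosine, went from 10.2 to 5.43 FPKM (-0.97 ± 0.09, edgeR adjusted p = 1.5e-07). Panx1 and Adora2b were named after their values were seen. Among the genes that rose, Panx3, a pannexin channel of bone and cartilage, was low, at 0.191, 0.158 and 0.0843 FPKM in the controls and 0.332, 0.482 and 0.322 FPKM with ZM (1.35 ± 0.30, edgeR adjusted p = 0.0014; named after its values were seen). Ak1, adenylate kinase, rose by 0.22, and Entpd5, an enzyme that splits UDP and GDP, by 0.26 on the log2 scale. Entpd2, an ATP-splitting ectoenzyme, rose by 0.55, but 28.8% of its exon length is overlapped by another gene and the call was lost without control 3, ZM 1 or ZM 2 (edgeR adjusted p 0.053 to 0.092).

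**Figure D3:**
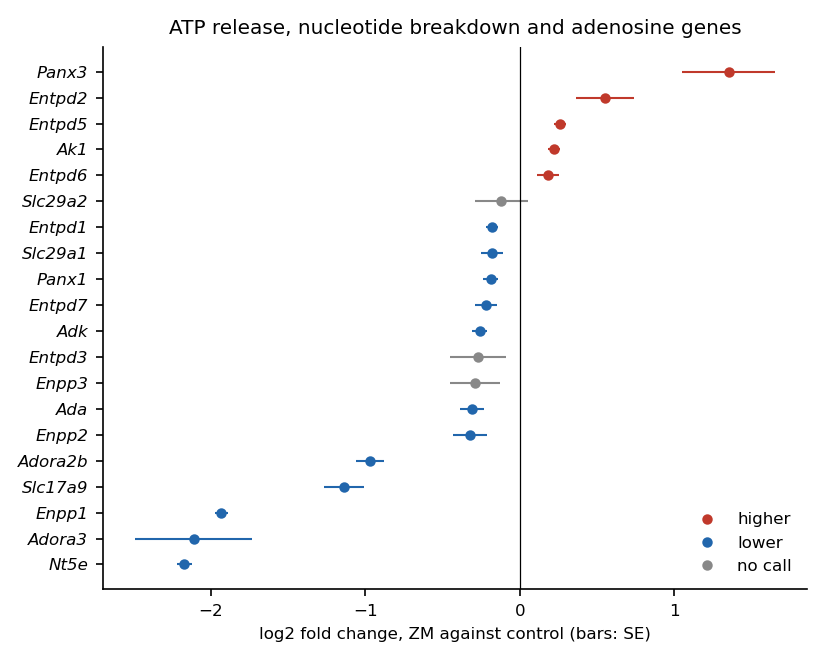
Log2 fold changes of ZM against control (bars, SE) for the 20 tested genes of the nucleotide list; red genes were called higher, blue lower and grey not called. Nt5e, Adora3 and Enpp1 lie furthest to the left, near -2, and Panx3 furthest to the right at 1.35.

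Of 15 potassium channel genes at 0.5 FPKM or more, 9 fell, 4 rose and 2 did not pass, beside 25.2% lower and 25.6% higher among all genes above the level, and the summed family level went from 89.4 to 80.9 FPKM. All 3 tandem-pore channels fell, as did 2 of 3 voltage-gated pores and 2 of 4 inward rectifiers. Kcnn1 and Kcnj4 did not pass.

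Kcna3, a voltage-gated channel best known in T lymphocytes and also present in macrophages, fell furthest. It measured 2.15, 2.17 and 2.48 FPKM in the controls and 0.719, 0.635 and 0.615 FPKM with ZM, 3.59-fold lower (-1.84 ± 0.15, edgeR adjusted p = 2.4e-08). Kcnn4, a channel opened by calcium and calmodulin in blood and immune cells, measured 6.18, 6.40 and 6.28 FPKM in the controls and 3.93, 3.98 and 3.80 FPKM with ZM (-0.75 ± 0.05, edgeR adjusted p = 5.7e-09). Kcnab2, a cytoplasmic subunit that binds voltage-gated pores, measured 9.74, 9.81 and 10.2 FPKM in the controls and 6.47, 6.65 and 6.38 FPKM with ZM (-0.67 ± 0.04, edgeR adjusted p = 7.7e-10). In each of these genes the ZM samples agreed closely and lay well below the controls. Kcna3 and Kcnn4 are also on the list of members known in osteoblasts. Kcnab1, a relative of Kcnab2, went the other way, from 1.28 to 1.72 FPKM (0.37 ± 0.08, edgeR adjusted p = 0.0011). Among the other voltage-gated pores, Kcnq5, an M-type channel of neurons and smooth muscle, fell by 0.55 on the log2 scale, from 2.80 to 1.99 FPKM. Kcnd1, an A-type channel, rose by 0.31, a call that was lost without control 2 (0.19, edgeR adjusted p = 0.11) or ZM 1.

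The inward rectifiers, which hold the resting potential near that of potassium, split. Kcnj2 (chr11:111066164-111076821), whose human counterpart is mutated in a syndrome with skeletal malformations, measured 1.85, 1.46 and 1.63 FPKM in the controls and 4.47, 3.98 and 4.17 FPKM with ZM. It was 2.46-fold higher (1.30 ± 0.08, edgeR adjusted p = 1.2e-09), and every ZM sample stood above every control. Kcnj10, known from glia and kidney, measured 1.77, 1.34 and 1.89 FPKM in the controls and 0.701, 0.385 and 0.584 FPKM with ZM (-1.62 ± 0.22, edgeR adjusted p = 0.00076), with a wider spread than Kcnj2 but no overlap. Summed levels of 8 glial markers were 9.22 to 10.1 FPKM in the controls and 7.75 to 8.76 FPKM with ZM, and their part in the Kcnj10 value was not tested. Kcnj15 had by far the highest level of the class, 23.4 ± 0.721 FPKM in control and 21.1 ± 0.311 FPKM with ZM (-0.21 ± 0.04, edgeR adjusted p = 0.0002). It made up 84.0% of the summed class level in control and 78.0% with ZM, while Kcnj2 went from 5.91% to 15.5%.

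The tandem-pore channels carry background potassium current. Kcnk2, which responds to stretch and is known in osteoblasts, went from 2.39 ± 0.268 to 1.74 ± 0.119 FPKM (-0.51 ± 0.09, edgeR adjusted p = 0.00018), with 12.2% of its exon length overlapped by A430027H14Rik on the other strand. Kcnk6 fell by 0.33 and Kcnk13, a channel of microglia, by 0.20 on the log2 scale, and the Kcnk13 call was lost without control 2 or ZM 3 (edgeR adjusted p 0.055 and 0.073), with library totals alone (edgeR adjusted p = 0.076) and in limma on FPKM (adjusted p = 0.052). The auxiliary subunit Kcne4, which inhibits several voltage-gated pores, was 15.1 ± 0.331 FPKM in control and 17.1 ± 0.182 FPKM with ZM. Its rise of 0.12 ± 0.04 on the log2 scale (edgeR adjusted p = 0.025) did not pass in DESeq2 (adjusted p = 0.069) or when control 1, control 2, ZM 2 or ZM 3 was left out (edgeR adjusted p 0.061 to 0.082).

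**Figure D4:**
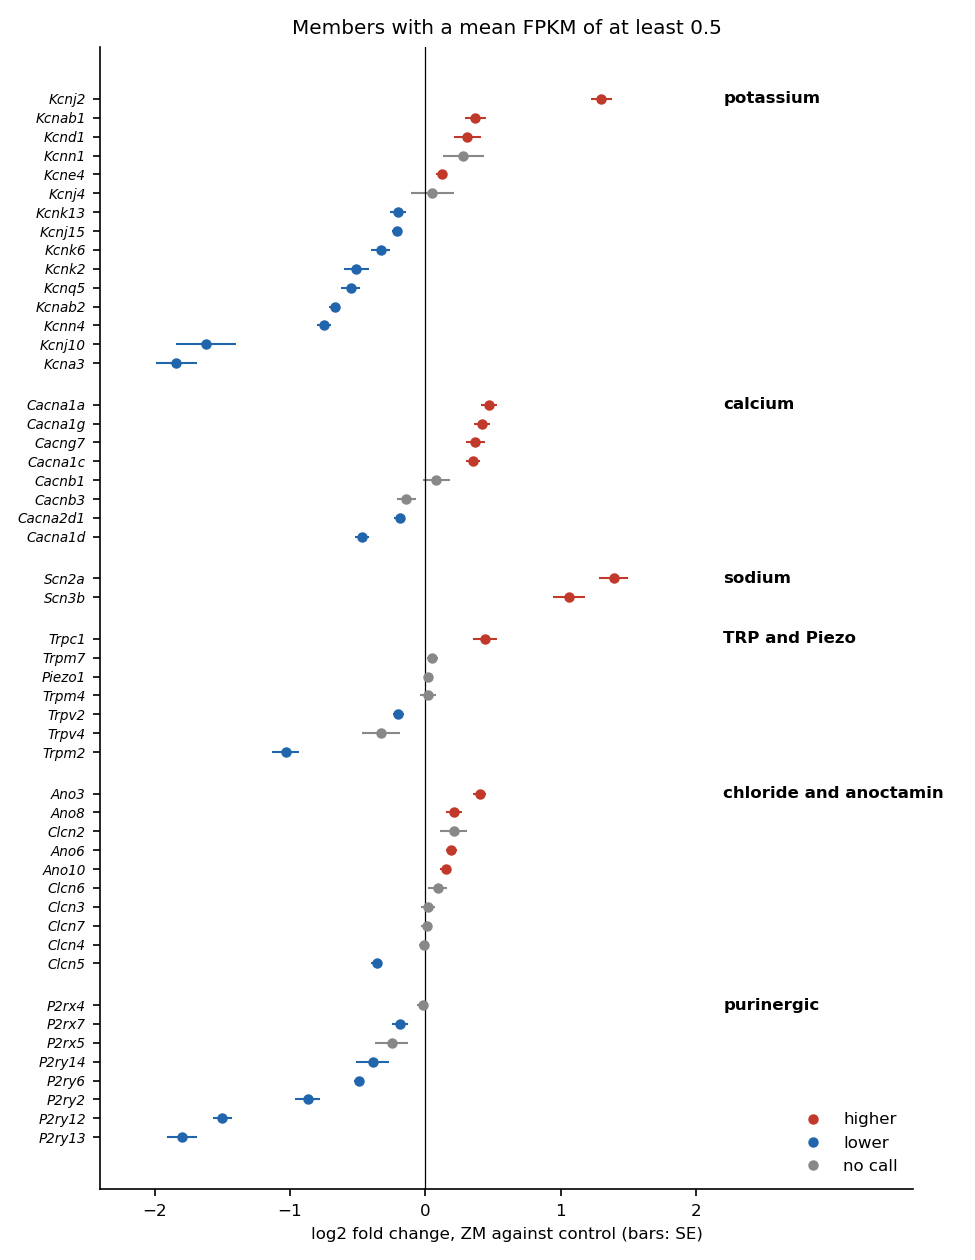
Log2 fold changes of ZM against control (points; bars, SE) for the members at 0.5 FPKM or more, 1 of them left out, grouped by family and sorted within it; red was called higher, blue lower and grey not called. In the P2 receptor group no gene is red, and Scn2a and Kcnj2 lie furthest to the right.

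Of 8 voltage-gated calcium channel genes, 4 rose, 2 fell (25.6% and 25.2% of all genes above the level) and 2 did not pass, and none was called at 1.5-fold or more. The pore genes were all low and close to each other in level. Cacna1c, the L-type pore of heart and smooth muscle and a known pore in osteoblasts, measured 2.07, 1.78 and 1.98 FPKM in the controls and 2.65, 2.39 and 2.65 FPKM with ZM (0.35 ± 0.05, edgeR adjusted p = 9.3e-05). Cacna1d, the other L-type pore present, went the opposite way, with 2.51, 2.37 and 2.34 FPKM in the controls and 1.86, 1.78 and 1.79 FPKM with ZM (-0.47 ± 0.05, edgeR adjusted p = 7e-07). Cacna1d thus held 30.8% ± 1.27 (SD, n = 3) of the summed pore level in control and 19.5% ± 0.382 with ZM, and Cacna1c 24.8% ± 0.945 and 27.5% ± 1.19. The T-type pore Cacna1g, which opens at low voltage, rose from 2.02 to 2.82 FPKM (0.42 ± 0.06, edgeR adjusted p = 2.3e-05), and the P/Q-type pore Cacna1a, known from nerve terminals, from 1.17 to 1.69 FPKM (0.47 ± 0.06, edgeR adjusted p = 9.9e-06). In none of the 4 pore genes did the groups overlap, which also held for 59.9% of all genes above the level.

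Among the calcium channel auxiliary subunits, Cacng7, which in the brain regulates AMPA-type glutamate receptors, rose from 5.58 to 7.52 FPKM (0.37 ± 0.07, edgeR adjusted p = 0.00036). Cacna2d1, which carries pores to the membrane and binds gabapentin, fell slightly, from 6.07 to 5.56 FPKM (-0.19 ± 0.04, edgeR adjusted p = 0.0006). The beta subunits did not pass: Cacnb3 was 6.80 ± 0.79 FPKM in control and 6.41 ± 0.347 FPKM with ZM, and was called lower only without control 2 (-0.23, edgeR adjusted p = 0.011), and Cacnb1 had a fold change of 0.08 ± 0.10. Cacna1h, a T-type pore reported in bone cells, was near 0 (0.0234 and 0.0415 FPKM).

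Sodium channel genes were higher with ZM in the values described here. Scn2a, a pore of neurons, measured 0.300, 0.273 and 0.274 FPKM in the controls and 0.680, 0.763 and 0.864 FPKM with ZM, 2.62-fold higher (1.39 ± 0.11, edgeR adjusted p = 1.6e-08). Scn3b, a beta subunit, measured 0.630, 0.650 and 0.766 FPKM in the controls and 1.54, 1.28 and 1.61 FPKM with ZM, 2.08-fold higher (1.06 ± 0.12, edgeR adjusted p = 1.1e-06). Both genes were low, and every ZM sample lay above every control. Scn7a, a salt-sensing relative just under the level limit, measured 0.297 FPKM in control and 0.674 FPKM with ZM (1.13 ± 0.13, edgeR adjusted p = 2.3e-06). Summed levels of 8 neuron markers were 7.48 to 8.08 FPKM in the controls and 11.9 to 12.6 FPKM with ZM. Of 5 tested, 2 rose and 1 fell, beside 22.8% and 22.4% of all genes tested. Rbfox3, Snap25 and Elavl4 were too low to test. The part of these neuron markers in the sodium channel values was not tested.

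**Figure D5:**
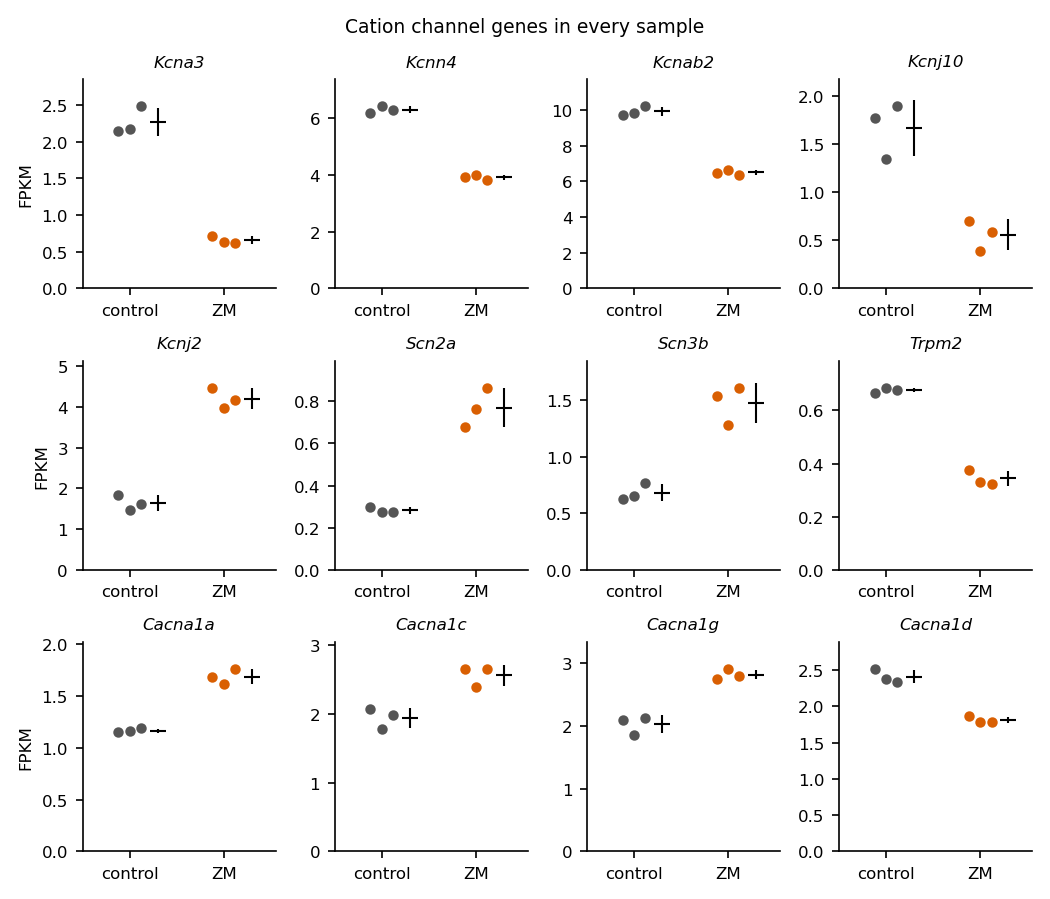
FPKM of 12 cation channel genes in every sample (points; 3 control, 3 ZM) with the group mean and SD as a bar beside them, each axis starting at 0. Control and ZM points do not overlap in any panel, which also holds for 59.9% of all tested genes at 0.5 FPKM or more. Kcnj2, Scn2a, Scn3b, Cacna1a, Cacna1c and Cacna1g are higher with ZM and the other genes are lower.

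Of 7 TRP and Piezo genes, 1 rose, 2 fell and 4 did not pass (42.9% called, beside the 50.9% of all genes above the level). Piezo1, the stretch-gated channel of osteoblasts and many other cells, measured 31.2, 30.7 and 31.6 FPKM in the controls and 32.9, 32.1 and 34.0 FPKM with ZM, and its fold change was 0.02 ± 0.03 (edgeR adjusted p = 0.58). The FPKM values did not overlap, but the difference is about the size of the scaling step between FPKM and TMM. A part of the Piezo1 exons (24.6%) is overlapped by Ctu2 on the other strand, and without a stated strand setting their reads cannot be told apart. Trpm7, a magnesium- and calcium-permeable channel joined to a kinase, had 16.8 ± 0.557 and 18.1 ± 0.487 FPKM (0.05 ± 0.04, edgeR adjusted p = 0.25), and passed only where library totals alone set the scale (0.11, edgeR adjusted p = 0.019) or in limma on FPKM. Trpv4, an osmotic and mechanical sensor of cartilage and bone, was low at 0.898 ± 0.123 and 0.753 ± 0.0758 FPKM and did not pass (-0.33 ± 0.14, edgeR adjusted p = 0.071). Trpm4, a calcium-activated sodium channel, had a fold change of 0.02 ± 0.06.

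Trpm2, opened by ADP-ribose in oxidative stress and known from macrophages and neutrophils, measured 0.667, 0.685 and 0.678 FPKM in the controls and 0.376, 0.332 and 0.324 FPKM with ZM (-1.03 ± 0.10, edgeR adjusted p = 1.7e-07). Trpv2, also strong in macrophages and on the list known in osteoblasts, fell from 13.3 ± 0.222 to 12.1 ± 0.457 FPKM (-0.20 ± 0.04, edgeR adjusted p = 0.00096). Trpc1 rose from 0.683 ± 0.0554 to 0.964 ± 0.0158 FPKM (0.44 ± 0.09, edgeR adjusted p = 0.0011). Piezo2, the touch receptor, was near 0 in both groups (0.0733 and 0.0371 FPKM) and fell (-1.04 ± 0.27, edgeR adjusted p = 0.0047), and Trpc6 was too low to test.

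Of 10 ClC and anoctamin genes at 0.5 FPKM or more, 4 rose, 1 fell and 5 did not pass. Among all genes above that level 50.9% were called, 25.6% higher and 25.2% lower, so the family was called about as often. Within the family, all 4 anoctamin genes at that level rose. Of 6 ClC genes 0 rose and Clcn5 fell. The anoctamin rises were small. Ano6, a calcium-activated lipid scramblase required for normal mineral deposition in mice, measured 11.7, 11.3 and 11.9 FPKM in the controls and 13.6, 13.6 and 14.4 FPKM with ZM (0.19 ± 0.04, edgeR adjusted p = 0.00035). Ano3 rose from 4.45 to 6.11 FPKM (0.40 ± 0.05, edgeR adjusted p = 1e-05), Ano8 by 0.21 and Ano10 by 0.15 on the log2 scale, each without overlap. Ano5, mutated in a human bone dysplasia, was near 0.1 FPKM or below (0.0995 and 0.0791 FPKM) and did not pass. Clcn7, the lysosomal chloride-proton exchanger whose loss causes osteopetrosis, was the most abundant member, at 37.1, 37.6 and 34.5 FPKM in the controls and 39.4, 38.2 and 37.3 FPKM with ZM. The groups overlapped and the fold change was 0.01 ± 0.04 (edgeR adjusted p = 0.79). Its partner Ostm1 did not pass either (13.3 and 13.7 FPKM, -0.01 ± 0.04), while Acp5 and Mmp9, osteoclast markers, rose by 3.31 and 3.35 on the log2 scale. Clcn5, an endosomal exchanger, fell from 7.85 ± 0.102 to 6.39 ± 0.242 FPKM (-0.36 ± 0.04, edgeR adjusted p = 1.3e-06). Clcn2, Clcn3, Clcn4 and Clcn6 had fold changes of -0.01 to 0.21 on the log2 scale and did not pass. Clcn2 was called higher only without ZM 2 (0.32, edgeR adjusted p = 0.011) or with library totals alone (0.27, edgeR adjusted p = 0.035).

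Members under 0.5 FPKM were tested only where counts allowed. Of 59 tested, 10 rose and 10 fell (33.9%; 25.5% of all tested genes under that level). The largest fold changes of all members lay here and were chosen after their values were seen. Kcnk10, a tandem-pore channel related to Kcnk2, had 188, 358 and 288 counts in the controls and 32, 19 and 30 with ZM (-3.19 ± 0.17, edgeR adjusted p = 2.2e-10). Kcnh2, the repolarising channel of heart muscle, had 89, 133 and 141 counts in the controls and 27, 13 and 28 with ZM (-2.27 ± 0.24, edgeR adjusted p = 7e-07). Kcns1, a modifier subunit with no current of its own, had 2 counts in each control and 30, 28 and 25 with ZM (3.86 ± 0.50, edgeR adjusted p = 7.4e-06), so its fitted fold change rests on very few control reads. Kcnc1, a fast voltage-gated pore of neurons, had 3, 6 and 2 counts in the controls and 30, 17 and 28 with ZM (2.87 ± 0.48, edgeR adjusted p = 0.00012), with the same limit. Kcnn3, a small-conductance calcium-activated channel, went from 0.251 to 0.586 FPKM (1.16 ± 0.12, edgeR adjusted p = 5.4e-07), in the direction opposite to Kcnn4. Kcnma1, the large-conductance channel, stood at 0.027 and 0.0369 FPKM and did not pass.

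Genes that handle calcium downstream of these channels moved in both directions. Of 29 tested genes for store-operated entry, intracellular channels, pumps and exchangers, 11 rose and 8 fell, beside 22.8% and 22.4% of all genes tested. Pkd2, a calcium-permeable TRP-family channel of cilia and the endoplasmic reticulum, fell from 98.2 ± 2.49 to 52.0 ± 2.93 FPKM (-0.98 ± 0.04, edgeR adjusted p = 3.2e-12). The lysosomal channels Mcoln3 and Mcoln2 fell by 1.39 and 0.92 on the log2 scale. Stim1, the calcium sensor of the endoplasmic reticulum, rose by 0.37, while Orai1, the channel it opens, fell by 0.40 (named after its value was seen). The plasma membrane pump Atp2b4 rose by 0.49 and the exchanger Slc24a3 by 0.37. Of 20 tested genes of calcium, calmodulin and calcineurin signalling, 10 fell and 4 rose, a balance that turned to 6 and 7 with library totals alone as the scale, and limma on FPKM called 6 lower. Rcan1, a feedback inhibitor and target of calcineurin, fell from 39.6 ± 4.87 to 14.1 ± 0.804 FPKM (-1.55 ± 0.11, edgeR adjusted p = 0.00011). The calcium-responsive nuclear receptors Nr4a1 and Nr4a2 fell by 1.68 and 1.58. Camk4, a calcium-calmodulin kinase, rose from 0.477 to 2.37 FPKM (2.23 ± 0.14, edgeR adjusted p = 1.4e-09), and Nfatc1 rose by 0.39 and Nfatc3 by 0.13, the last lost without control 2, control 3 or ZM 3.

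Other channels and channel partners, 26 tested, gave 10 falls and 7 rises, again beside 22.4% and 22.8% of all genes tested. The volume-regulated anion channel subunits Lrrc8d and Lrrc8b fell by 0.87 and 0.63 on the log2 scale. Stac2, a partner of L-type calcium channels, fell from 7.36 to 4.27 FPKM (-0.85 ± 0.07, edgeR adjusted p = 5.9e-08). Mdfic, an auxiliary subunit of Piezo channels, rose from 27.3 to 38.4 FPKM (0.43 ± 0.03, edgeR adjusted p = 1.1e-08), beside the fold change near 0 of Piezo1 itself. Mtss2 rose by 0.43, and Best1, a chloride channel, by 0.41, a call lost in DESeq2 (adjusted p = 0.064) and when any sample except control 1 was left out. Of 27 tested genes of a list of members known in osteoblasts, 12 fell and 4 rose, beside the same shares.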

How the data were processed

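RNA sequencing of 6 samples was used, 3 control and 3 with ZM, grouped by their titles. HISAT2 2.2.1, featureCounts 2.0.3 (Subread), DESeq2 and mm10 are listed in the submitters' processing notes. Annotation, strand setting and handling of multimapping reads: not given in the sources used here. Raw read counts and FPKM for 31401 genes form the table deposited by the authors, per the file headers. The FPKM values deposited by the authors are scaled by gene length and library total. A count of 0 allows up to 3 counts, or 0.0429 to 0.0702 CPM, for counting error only.

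The filterByExpr step kept 17533 genes for edgeR 4.0.16 (R 4.3.3): TMM scaling, robust quasi-likelihood F test, Benjamini-Hochberg adjustment over all genes tested, threshold 0.05. The biological coefficient of variation was 6.46%. The SE of a log2 fold change is its size over the square root of F. Library pairs within groups differed beyond sampling noise (chi-square per degree of freedom 5.30 to 8.98). Scripts were tested on simulated data.

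Members and lists were chosen with earlier results of these data known. Named genes are, per class, up to 2 risen and 2 fallen members with the largest change, past the threshold, without overlap and at 0.5 FPKM or more; the 8 most abundant; a list known in osteoblasts; the 3 members on each side of the limit; and up to 3 risen and 3 fallen genes per companion list. A member that the rule names is not reported here. Members outside this rule are given in counts or were named to complete a class. Coordinates and exon overlaps come from GENCODE M21 (GRCm38, also called mm10), and near-identical copies were searched with BLAST+ 2.17.0. Alternatives were DESeq2 1.42.0, limma 3.58.1 on log2(FPKM + 1) and log2(FPKM + 0.1), which understates changes of low genes, other scalings, filters and level limits, a 1.5-fold minimum, a replicate block and leaving out each sample.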

Additional observations from a re-analysis of the deposited data

How the results depend on the processing

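No named gene changed direction past the threshold under any alternative, 994 of 1074 values of 73 named genes kept their side of the threshold, and 30 of the 36 member calls held in every fit. Counted by gene, only 36 of the 73 kept their side in every alternative, and the 1.5-fold minimum alone took the call from 34. A 1.5-fold minimum left 3 members higher and 8 lower (potassium 1 and 4, calcium 0 and 0, TRP and Piezo 0 and 1, chloride and anoctamin 0 and 0), 3 P2 receptors lower, 1 higher and 5 lower in the ATP list, 0 and 4 in the store-operated list, 2 higher among other channels, and 1 and 5 in the calcineurin list. With library size alone the calcineurin list gave 7 higher and 6 lower, and TRP and Piezo 2 higher. Both limma fits gave 2 TRP and Piezo genes higher, 6 other channels lower and 6 calcineurin genes lower. DESeq2 gave 3 higher in the ATP list. At a level limit of 1 FPKM, TRP and Piezo had 0 higher and 1 lower, and at 0.2 FPKM 7 potassium genes were higher. The limma fits held only the 13950 genes at 0.5 FPKM or more, so genes below that could not be called there. A changed level limit alters only which members are counted. The cause of these moves was otherwise not tested. Leaving out each sample gave 14 to 16 members higher and 17 to 20 lower, 2 to 4 potassium genes higher (2 without control 2), 4 to 6 P2 receptors lower, 3 to 5 higher in the ATP list (3 without control 3, ZM 1 or ZM 2), and 2 to 4 higher in the calcineurin list (2 without control 3).

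Same-numbered samples did not deviate together (correlations -0.04, 0.058 and -0.015), so the numbers are not taken as pairs. With the replicate block 16 members were higher and 20 lower, with 7752 genes called instead of 7939, and not every sample correlated best with its own number.

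The 73 members not tested were removed by the edgeR filter on low counts, and no call is given for them here. With 3 samples a group and unstated cultures, small calls rest on few libraries.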
